A study of Mus musculus with 4 samples.

Results

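Immediate early gene-high early lesion cells are the mammary cells with the highest share of their RNA in 9 immediate early and stress genes, Atf3, Egr1, Hspa1a, Fos, Zfp36, Junb, Jun, Btg2 and Ier2. The cells were chosen by measured values, the UMI counts of these genes (each UMI stands for 1 captured RNA molecule). Barcodes of the early lesion library were taken as cells with at least 250 detected genes, at most 20% mitochondrial UMIs and a UMI minimum, above which the shallowest cell had 924 UMIs. They were ranked by the set share, and the top 12% were kept. This gave 130 of the 1085 cells of the library, which is 1 of 4 libraries with 1905 cells in all. The other 955 cells of the lesion were the comparison. Because the 9 genes chose the cells, their values are given as a description, and the comparison rests on genes outside the set.

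The lesion cells came from mammary glands of FvB mice of 14 to 18 weeks that had no palpable tumor and carried the MMTV-HER2/Neu transgene, in which a mammary tumor virus promoter drives Erbb2 in the mammary epithelium. Early lung cells came from lungs at that age and stage. Primary tumor cells and late lung cells came from transgenic FvB mice older than 20 weeks with primary tumors. In every library, digested tissue had been sorted for CD45- HER2+ cells and captured with the 10x Chromium 3′ v2 kit. Each condition had 1 library, whether from 1 mouse or several is not given in the sources used here, and no library without the transgene was analysed. With no replicate there is no test: cells of 1 library are not replicates, and every interval below is an exact 95% Poisson interval that covers counting error only, not the spread between cells or mice.

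Immediate early genes are transcribed within minutes of a growth factor, a stress or a mechanical signal, from transcription factors that already sit in the cell. Many encode transcription factors themselves, Atf3 among them: Fos and Jun proteins pair to form AP-1, and Egr1 and the Klf proteins bind other sites. Others shut the response down again, among them the MAP kinase phosphatase Dusp1 and Zfp36, which speeds decay of AU-rich mRNAs. In the mammary gland the ERBB receptors signal into this pathway, and tissue digestion is also known to switch on many of the same genes.

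The promoters of several of these genes are shown because they hold matches to known sites of this response. Each sequence is the 250 bases before the start, read along the gene, from RefSeq on GRCm38.p6. Capitals mark matches, on either strand, to the cyclic AMP response element (CRE) TGACGTCA, its core TGACG, the heat shock element GAANNTTC or its reverse arrangement TTCNNGAA, the AP-1 site TGANTCA and the CArG box, the binding sequence of serum response factor. The core overlaps every full CRE. Fos, the partner of Jun in AP-1, is at chr12:85473640-85473889 (plus strand). Btg2, an antiproliferative cofactor of mRNA deadenylation, is at chr1:134079156-134079405 (minus strand). Zfp36 is at chr7:28379229-28379478 (minus strand). Dusp1, which was not used for ranking, is at chr17:26508473-26508722 (minus strand). The heat shock proteins Hspa1a and Hspa1b are at chr17:34972157-34972406 (minus strand) and chr17:34959239-34959488 (minus strand).
Fos: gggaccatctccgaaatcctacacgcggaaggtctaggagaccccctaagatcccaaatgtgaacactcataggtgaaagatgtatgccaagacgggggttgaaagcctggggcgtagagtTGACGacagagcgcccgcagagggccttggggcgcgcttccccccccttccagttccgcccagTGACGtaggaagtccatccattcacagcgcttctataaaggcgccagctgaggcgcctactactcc
Btg2: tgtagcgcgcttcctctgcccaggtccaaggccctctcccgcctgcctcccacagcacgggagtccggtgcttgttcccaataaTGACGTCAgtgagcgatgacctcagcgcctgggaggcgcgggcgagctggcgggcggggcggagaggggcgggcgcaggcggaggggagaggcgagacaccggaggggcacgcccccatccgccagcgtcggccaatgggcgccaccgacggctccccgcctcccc
Zfp36: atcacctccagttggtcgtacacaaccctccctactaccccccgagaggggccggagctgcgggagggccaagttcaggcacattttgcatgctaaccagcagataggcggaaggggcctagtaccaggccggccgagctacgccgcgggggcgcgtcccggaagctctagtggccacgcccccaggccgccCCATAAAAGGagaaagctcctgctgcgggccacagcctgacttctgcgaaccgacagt
Dusp1: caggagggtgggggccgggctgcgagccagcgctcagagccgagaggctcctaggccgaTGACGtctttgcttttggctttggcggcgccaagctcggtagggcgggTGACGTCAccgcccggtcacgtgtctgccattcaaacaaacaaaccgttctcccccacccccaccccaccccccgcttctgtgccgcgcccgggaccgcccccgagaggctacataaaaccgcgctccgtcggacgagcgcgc
Hspa1a: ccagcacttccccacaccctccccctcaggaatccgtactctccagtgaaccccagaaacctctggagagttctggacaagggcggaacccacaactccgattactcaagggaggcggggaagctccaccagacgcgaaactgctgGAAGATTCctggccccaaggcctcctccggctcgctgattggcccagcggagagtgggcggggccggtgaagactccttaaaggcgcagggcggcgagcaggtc
Hspa1b: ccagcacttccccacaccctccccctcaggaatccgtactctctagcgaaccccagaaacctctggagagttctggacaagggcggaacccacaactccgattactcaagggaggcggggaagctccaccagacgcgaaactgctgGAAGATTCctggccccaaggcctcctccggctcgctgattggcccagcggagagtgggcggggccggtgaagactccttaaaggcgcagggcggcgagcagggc

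Within the printed bases, Dusp1 and Btg2 each held a full CRE, Fos held only its core and Zfp36 held a CArG box. Hspa1a and Hspa1b held the same heat shock element at the same distance from the start. Bases further before the start were not searched, so a site not found here may lie outside the window. The Hspa1a and Hspa1b windows differed at 3 of 250 bases, and the coding sequences are nearly identical too, so reads of these paralogs may be split or misassigned and the values of each are uncertain. Over windows that also take in the 50 bases after the start, a full CRE was found in 1 of the 7 ranking genes with a window in the table (14.3%), and in 549 of all 27025 genes with a window (2.03%). The core was found in 4 of the 7 ranking genes (57.1%) and in 6228 of all 27025 genes. A heat shock element GAANNTTC was found in 2 of the 7 ranking genes and in 9.04% of all genes. The reverse arrangement TTCNNGAA was in 0 of the 7 ranking genes and 9.60% of all genes, the AP-1 site in 0 of the 7 and 8.97%, and the CArG box in 1 of the 7 and 1.81%. Among the 6209 genes with a window and enough counts to be compared below, the shares differed from those of all genes. A full CRE was in 4.07%, the core in 38.9% and GAANNTTC in 6.89%. TTCNNGAA was in 8.23%, the AP-1 site in 5.40% and the CArG box in 1.63%. Shares over 7 ranking genes rest on very few genes. A match is a description of the letters, not evidence of binding.

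The ranking separated a tail of a continuous distribution, not a group set apart. The set share was 0.737% of UMIs at its lowest, 1.02% at the median and 4.77% at its highest in the selected cells, and 0, 0.122 and 0.729% in the other lesion cells. The last 3 cells inside had 9 of 1183 UMIs, 12 of 1585 UMIs and 7 of 950 UMIs in the set (0.761, 0.757 and 0.737%). The nearest 3 outside had 15 of 2058, 7 of 968 and 36 of 5010 (0.729, 0.723 and 0.719%). Several of these cells rest on fewer than 10 set UMIs, and membership near the boundary rests on few counts. When every cell was thinned to the UMI minimum before ranking, 80.8% of the 130 cells were chosen again. When cells were ranked on a random part of their UMIs, 109 of the 130 were.

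**Figure D1:**
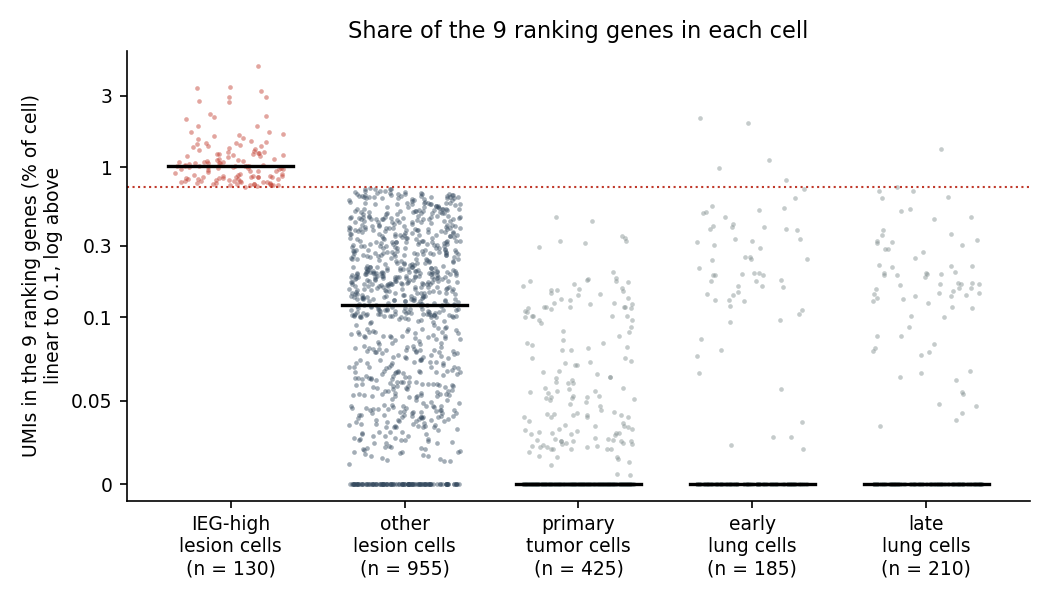
Share of each cell's UMIs in the 9 ranking genes (vertical axis, linear up to 0.1% and logarithmic above), with 1 point per cell and a black line at the median. The dotted line is the lowest share among the 130 selected lesion cells (0.737%), which 0 of 425 cells of the primary tumor, 5 of 185 in the early lung library and 2 of 210 in the late lung library reached.

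The other libraries are set beside the lesion as a description, since the boundary was placed on the lesion cells with the same 9 genes and the rule thereby fixes the lesion's own share near 12%. Every cell of every library was thinned to the UMI minimum of the lesion, where the boundary corresponds to 7 set UMIs. Then 146 of 1085 lesion cells reached it (13.5%), against 0 of 326 tumor cells, where 3 cells would be 0.920%. The same count was 1 of 67 in the early lung library and 1 of 96 in the late lung library. Left out as shallower were 118 early lung, 114 late lung and 99 tumor cells. No interval is given for these shares, since cells of 1 library are not replicates. Summed over all cells, the set took 0.287% of lesion UMIs, 0.0447% of tumor UMIs, 0.107% of early lung UMIs and 0.204% of late lung UMIs. RNA outside cells followed: in barcodes with 1 to 50 UMIs the set share was 0.447% in the lesion library, 0.0457% in the tumor library, 0.134% in the early lung and 0.175% in the late lung. The lesion value is above the median lesion cell (0.155%) and below every selected cell. The part that free RNA plays in the selected cells was not tested. No cell barcode was shared between libraries.

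Fos led the set. In CPM, the usual scaling of a gene's summed counts to the UMI total of the group, it stood at 3616 in the selected cells and 596 in the other lesion cells, and it was the most abundant set gene in 81 of the 130 cells. Jun followed with 1891 CPM in the selected cells and 198 CPM in the others, then Hspa1a with 1845 and 263 CPM, Junb with 1356 and 221 CPM, and Ier2, a nuclear regulator of transcription, with 1189.7 and 314 CPM. Btg2 and Zfp36 both reached 518 CPM in the selected cells, against 86.9 CPM for Btg2 and 76.5 CPM for Zfp36 in the others. Atf3, a stress-induced transcriptional repressor, had 373 and 39.9 CPM, and Egr1, a zinc finger transcription factor, 243 and 26.2 CPM. Fos, Jun, Hspa1a, Junb and Ier2 thus weighed more in the ranking than Atf3 and Egr1.

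Most selected cells held most of the set. They had a UMI of 7 of the 9 genes at the median (range 2 to 9), against 2 of 9 in the other lesion cells (range 0 to 9). The leading gene supplied 35.6% of a selected cell's set UMIs at the median. Hspa1a led in 20 cells, Jun in 12 and Ier2 in 10, while 32 selected cells had no Hspa1a UMI and 2 had no Fos UMI. Within the selected cells, Spearman correlations between pairs of set genes ran between -0.24, for Zfp36 with Hspa1a, and 0.22, for Ier2 with Junb. These are weak correlations of sparse values across cells of unlike depth (924 to 17738 UMIs). The cells were also chosen by the summed share of the same genes, so the correlations are given only as a description.

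Each set gene stayed higher when it was kept out of the ranking. With the gene left out and the cells ranked on the other 8, its log2 ratio of CPM, selected over other lesion cells, lay between 1.69 for Ier2 and 3.09 for Atf3. Fos gave 2.36 (2.26 to 2.46), with 3226 CPM in the cells so chosen and 629.8 CPM in the rest, and Jun gave 2.97 (2.82 to 3.12). When each cell's UMIs were split at random, cells were ranked on one part and values taken from the other, the range was 1.90 for Ier2 to 3.01 for Jun. These values come from the same cells and the same library as the selection.

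Outside the set, many transcripts of the same response were higher. Of 8090 genes with at least 20 counts over both sums, 440 were called higher in the selected cells (5.44%) and 71 lower (0.878%), where a call means at least 2-fold with an interval that excludes a ratio of 1. The median log2 ratio over all tested genes was 0.15. The 440 genes are not a fixed set: 272 of them were called again after the thinned ranking and 83 had at least 100 counts. Of all calls, 86.1% were higher. That share was 66.4% among genes with at least 100 counts, 69.8% against other lesion cells matched on UMI total, and 98.9% with 5 in place of 0.5 counts added to each sum. The counts of each gene list below are read against these shares. The other immediate early genes together took 0.105% of UMIs at the lowest, 0.547% at the median and 2.21% at the highest in the selected cells, and 0, 0.244 and 1.25% in the other lesion cells, so the groups overlapped cell by cell.

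**Figure D2:**
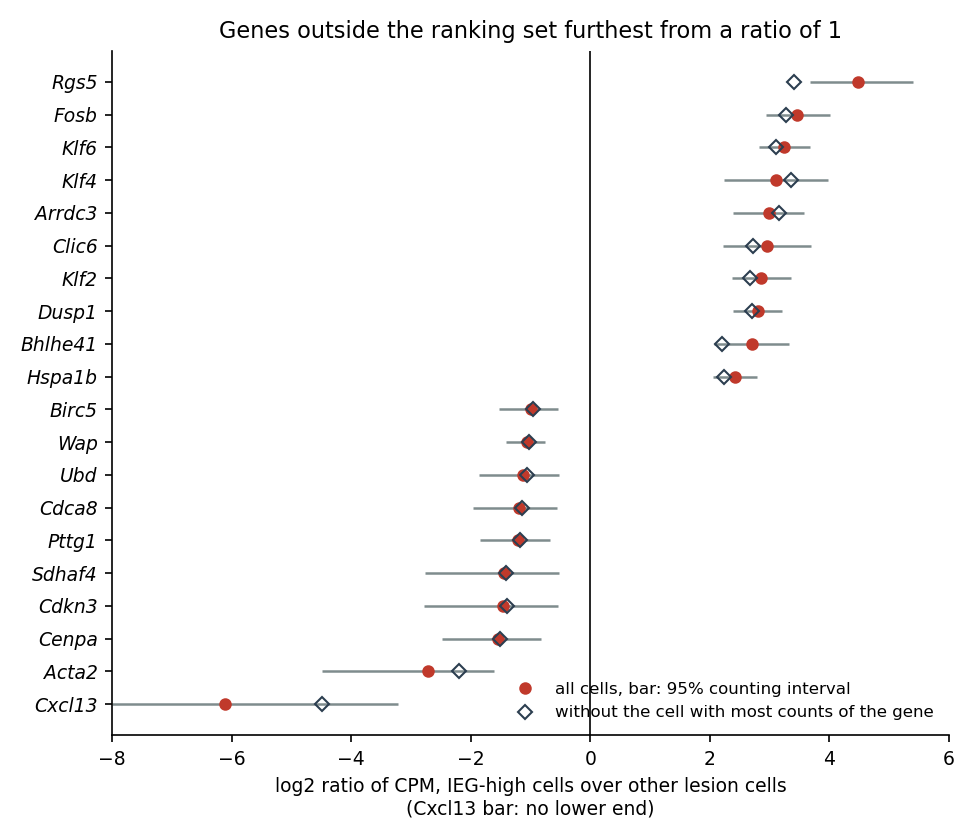
log2 ratio of CPM, selected immediate early gene-high (IEG-high) lesion cells over other lesion cells, for the 10 genes furthest up and the 10 furthest down outside the ranking set, with 95% counting intervals (bars) and the value after leaving out the cell with most counts of that gene (open diamonds). Fosb, Klf6, Klf4, Arrdc3, Klf2, Dusp1, Clic6 and Rgs5 stay above 2.5 on both, Rgs5 on counts from 3 selected cells. The Cxcl13 point depends on the counts added to its sum of 0. Hspa1b, also shown, may hold reads of the ranking gene Hspa1a.

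Of 15 other AP-1 family genes, 11 were tested, and 6 were called higher and 0 lower, with a median log2 ratio of 1.36. Fosb (chr7:19302696-19310051, GENCODE M21 on mm10), a Fos relative that also pairs with Jun, had 172 CPM in the selected cells and 15.5 CPM in the other lesion cells (log2 ratio 3.47, 2.93 to 4.02). Its 70 counts in the selected cells were spread over 41 cells with at most 9 in a cell. Jund, the Jun family member usually described as constitutive, had 667 and 198 CPM (1.75, 1.54 to 1.96). Maff, Fosl2 and Atf2 were among the others called, on 11 to 23 counts each in the selected cells. Atf4, the effector of the integrated stress response, was not called, with 186 CPM in the selected cells and 132 CPM in the others (0.51, 0.13 to 0.85).

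Of 46 other immediate early genes, 34 were tested, and 22 were called higher and 0 lower, with a median log2 ratio of 1.40. Several were Krüppel-like transcription factors. Klf6 (chr13:5861482-5870394) had 258 CPM in the selected cells and 27.1 CPM in the others (3.25, 2.83 to 3.67), Klf2 had 164 and 22.6 CPM (2.86, 2.37 to 3.35), and Klf4 had 61.3 and 7.14 CPM (3.10, 2.23 to 3.97). Klf9 and Klf10 were called at 1.44 and 1.07, and Klf5 was not (0.86, on 6 counts in the selected cells). Arrdc3, an arrestin domain protein that acts on receptor trafficking, had 123 and 15.5 CPM (2.99, 2.40 to 3.57).

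Secreted, signalling and nuclear receptor genes of the list moved the same way. Cyr61, a matricellular protein, had 324 CPM in the selected cells and 67.9 CPM in the other lesion cells (2.26, 1.93 to 2.57), with 26 of its 132 counts in 1 cell. Nr4a1, an orphan nuclear receptor, was at 2.66 (1.90 to 3.39) and Socs3, an inhibitor of JAK and STAT signalling, at 2.59 (1.69 to 3.44). Errfi1, an inhibitor of ERBB receptors, had 95.7 and 25.3 CPM (1.93, 1.33 to 2.48). Sgk1, Ier3, Rhob, Cited2 and Hes1 were called with log2 ratios from 1.31 to 1.81. Several known early genes were not: Myc had 103 and 60.7 CPM (0.78, 0.25 to 1.25), Cebpb had 1136 and 633 CPM (0.84, 0.69 to 0.99), Ier5 was at 0.99, and Id2 at -0.00 with 633 and 634 CPM.

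Feedback genes of the MAP kinase pathway followed. Of 18, 8 were tested, and 5 were called higher and 0 lower, with a median log2 ratio of 1.98. Dusp1, whose promoter with its full CRE is printed above, had 228 CPM in the selected cells and 32.7 CPM in the other lesion cells (2.80, 2.39 to 3.21), and its 93 counts came from 42 cells. Dusp6, Dusp5, Spry2 and Spred1 were called between 1.66 and 2.41 on 7 to 17 counts each in the selected cells. Phlda1 stayed under 2-fold (0.87) and Dusp4 was near a ratio of 1 (-0.19, -1.44 to 0.73). Of 13 ERBB receptor and ligand genes only Erbb2 and Erbb3 had enough counts to be tested. Erbb2 had 6 counts in the selected cells and 22 in the others (1.25, -0.42 to 2.52), and rat and mouse Erbb2 transcripts cannot be told apart in these counts, since the gene table lists 1 Erbb2.

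Relatives of Zfp36 and Btg2 in mRNA decay and growth arrest were higher as well, 5 of 7 tested with a median log2 ratio of 1.11. Zfp36l2 had 248 CPM in the selected cells and 80.1 CPM in the other lesion cells (1.63, 1.29 to 1.96), Btg1 had 226 and 75.9 CPM (1.58, 1.21 to 1.92), and Zfp36l1 and Tob1 were at 1.07 and 1.11.

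The heat shock response was present in part. Of 23 tested heat shock genes besides Hspa1a, 5 were called higher and 0 lower, and the list median of 0.35 was close to the 0.15 of all tested genes. The called genes were the inducible chaperones Hspa1b, with 258 CPM in the selected cells and 47.9 CPM in the others (2.43, 2.06 to 2.79), Hspb1, with 407 and 96.7 CPM (2.08), the co-chaperone Dnajb1, with 341 and 97.3 CPM (1.81, 1.51 to 2.10), and Cryab and Dnajb4 on 15 and 11 counts. Reads of Hspa1b and of the ranking gene Hspa1a may be misassigned, so the Hspa1b call is not independent of the selection. The call was kept when cells were ranked without Hspa1a. Abundant chaperones of unstressed cells differed less: Hspa8 had 3645 and 2853 CPM (0.35, 0.27 to 0.43), Hsp90ab1 was at 0.38 and Hspd1 at 0.06. The selected cells overlapped with the heat shock programme without being the same cells. Of the 130 cells with the highest share of this list, 51 were selected cells, which is 39.2% of the selected cells, against 8.27% of the other lesion cells. The list includes Hspa1b, so this overlap is not independent of the selection either. The overlap without Hspa1b was not tested.

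Inflammatory targets of NF-kB formed a smaller group, with 6 of 15 tested genes called higher, 0 lower and a median of 0.81. Nfkbia, the inhibitor that NF-kB itself induces, was the best measured, with 1744 CPM in the selected cells and 654 CPM in the other lesion cells (1.41, 1.29 to 1.54). The chemokine genes Cxcl1 and Ccl20 were at 2.67 and 1.74, and Ccl20 rested on 39 counts of which 15 came from 1 cell. Tnf, Nfkbiz and Tnfaip3 were called on 8 to 10 counts each in the selected cells. The subunits Nfkb1, Nfkb2 and Relb were not called, with log2 ratios of 0.56, -0.06 and -0.32. The list held 2 of 10 tested genes called (20.0%) when values were taken from the other part of each cell's UMIs. That setting gave 280 higher calls over all tested genes.

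**Figure D3:**
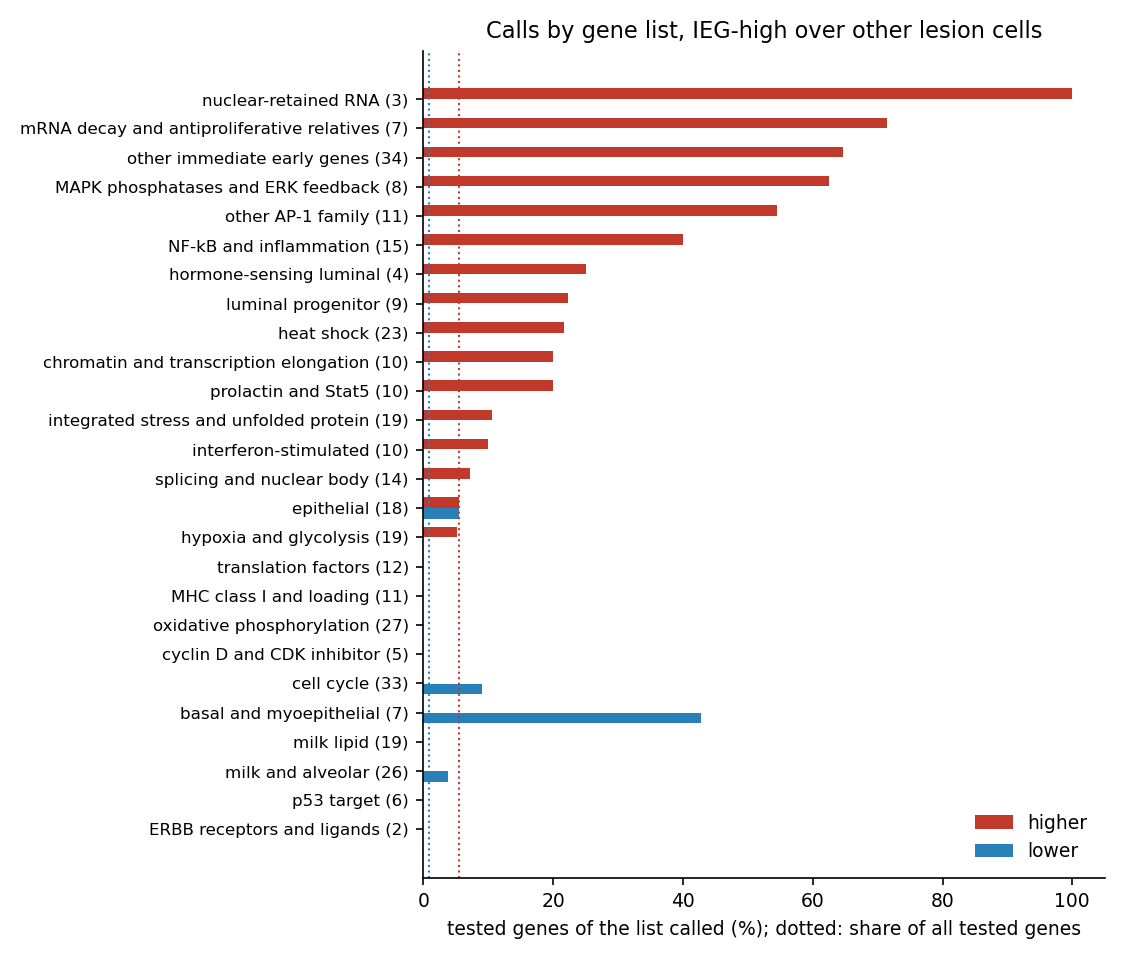
Percent of the tested genes of each list (number tested in brackets) that were called higher (red) or lower (blue) in selected over other lesion cells, with dotted lines at the share of all tested genes, 5.44% higher and 0.878% lower. The immediate early, AP-1, mRNA decay and MAP kinase feedback lists exceed 50% higher, and the 3 nuclear-retained RNAs rest on a few cells.

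Other stress programmes did not show the same pattern. Of 19 tested genes of the integrated stress and unfolded protein responses, 2 were called higher, Ddit3 (2.49, 1.61 to 3.33) and Herpud1 (1.33, 0.32 to 2.18), with a list median of 0.12. Hspa5, the main endoplasmic reticulum chaperone, had 287 CPM in the selected cells and 217 CPM in the others (0.41, 0.11 to 0.68). None of 6 tested p53 targets was called. Of 19 tested hypoxia and glycolysis genes 1, Vegfa, was called higher (1.62, 0.73 to 2.40), and 12.3% of the selected cells were among the 130 highest for that list, against 11.9% of the other lesion cells.

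The highest ratio of all outside the set, that of Rgs5, belonged to very few cells. Rgs5, a regulator of G protein signalling and a marker of pericytes, had 47 counts in the selected cells, from 3 cells with 25 in 1 of them, against 17 counts in the other lesion cells (4.48, 3.68 to 5.40). Its log2 ratio was -2.41 when cells were ranked by their share of UMIs outside milk genes. Malat1, a nuclear RNA, had 795 counts in the selected cells, 506 of them in 1 cell, and 2242 in the others, 497 of them in 1 cell (1.55, 1.43 to 1.66). Without the highest cell the Malat1 ratio was 0.09 (-0.09 to 0.26). With Xist and Neat1, all 3 tested nuclear-retained RNAs were called, and none was once cells over 10% mitochondrial UMIs were left out, which removed 3 selected and 7 other lesion cells. The other high genes outside the lists were Clic6, a chloride channel protein (2.96, 2.23 to 3.69), and Bhlhe41, a transcriptional repressor of the circadian clock (2.70, 2.07 to 3.32), which had 12 of its 41 counts in 1 cell.

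Luminal markers stood at like levels in the selected and the other lesion cells, and also in RNA outside cells. The luminal markers (Epcam, keratins, claudins, Elf5, Wfdc18 and Csn3) were found in 129 of 130 selected cells (99.2%) and 99.8% of the other lesion cells, and summed to 25687 CPM in the selected cells and 27445 CPM in the others. Barcodes with 1 to 50 UMIs had 26936 CPM of them, so free RNA alone would give nearly every cell of this depth a luminal UMI, and these markers do not check the identity of single cells. Markers of another type equalled or exceeded the luminal ones in 2 selected and 16 other lesion cells. In the selected cells Ptprc (CD45), Krt5, Krt17, Cdh5, Dcn, Lum and Pdgfra were at 0 counts. Basal markers summed to 260.0 CPM in the selected cells and 377 CPM in the others. Endothelial markers summed to 49.1 CPM in the selected cells and 70.2 CPM in the others, fibroblast markers to 14.7 and 93.5 CPM, immune markers to 4.91 and 12.8 CPM, and pericyte markers to 130.0 and 10.4 CPM, with 29 of the 53 pericyte counts in 1 selected cell. After leaving out cells with markers of other types, 22 of 34 other immediate early genes and 6 of 11 AP-1 genes were still called higher, among 437 higher calls over all tested genes. The part of these cells in the other results was not tested. A doublet caller marked 5 of 1085 cells, 0 of them selected.

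Fewer genes were called lower than higher, 71 against 440, or 42 against 83 among genes with at least 100 counts. A gene with no count in the selected cells needed at least 33 counts to be called lower. Several of the lower genes act in mitosis. Of 33 tested cell cycle genes, 3 were called lower and 0 higher, with a median log2 ratio of -0.45 against 0.15 for all tested genes. Cenpa, the centromeric histone, had 34.3 CPM in the selected cells and 104 CPM in the other lesion cells (-1.55, -2.48 to -0.83), Plk1 was at -1.55 (-3.33 to -0.42) and Nusap1 at -1.02 (-1.77 to -0.42). Pttg1, Cdkn3 and Cdca8, which also act in mitosis, were called lower between -1.46 and -1.19 outside the list. Birc5 just missed the 2-fold limit, with 90.8 and 183 CPM (-0.99, -1.53 to -0.53), and Top2a lay on the other side (0.38, -0.29 to 0.95). The list took 0.207% of UMIs in the median selected cell and 0.321% in the median other cell. Cycling cells were not absent: 12 of the 130 cells highest for the list were selected cells, 9.23% of the selected cells against 12.4% of the others. The number of lower calls in the list moved between 0, for the top 20% of cells, and 10, for the top 6%.

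Milk transcripts took a smaller share of the selected cells. The milk and alveolar list made up 12% of UMIs in the median selected cell (range 1.28 to 29.0%) and 16.8% in the median other lesion cell (range 0.477 to 54.6%). Most of this lay in the caseins: Csn2 had 39348 CPM in the selected cells and 54689 CPM in the others (-0.47, -0.50 to -0.45) and Csn1s2a had 44195 and 57792 CPM (-0.39, -0.41 to -0.36). Only Wap, a whey protein of late alveolar cells, passed the call, with 206 and 433 CPM (-1.06, -1.41 to -0.75), and it did not when cells were ranked by their share of UMIs outside milk genes (-0.92). Glycam1 was at -0.53. Spp1 and Lcn2 lay on the other side, at 0.78 and 0.85, with 5867 and 3407 CPM for Spp1. A smaller milk share raises the share of every other gene in the same cell, the set included. When the share was taken of UMIs outside this list, 123 of the 130 cells were chosen again.

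**Figure D4:**
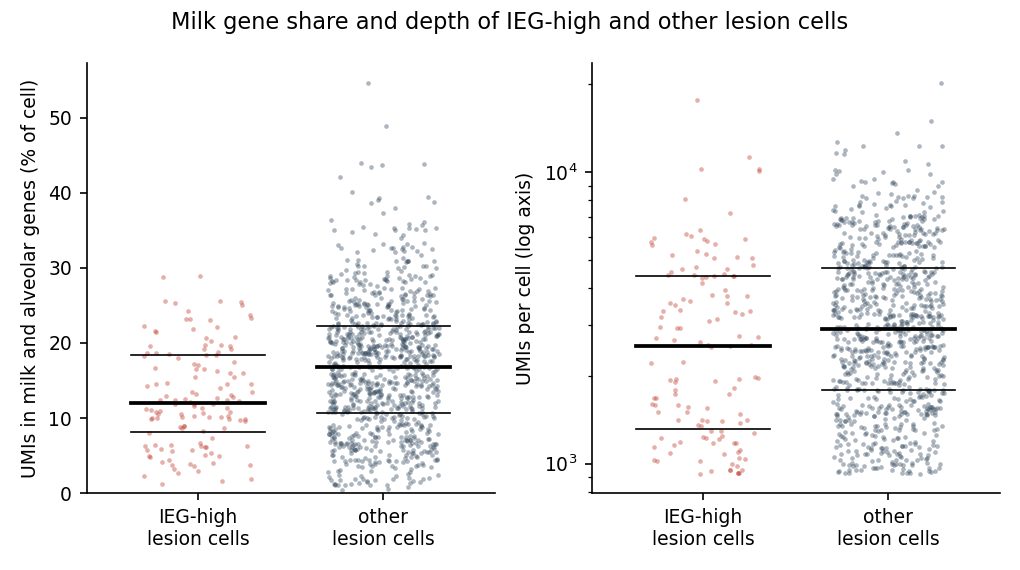
Share of UMIs in milk and alveolar genes (left, linear axis) and UMIs per cell (right, logarithmic axis) in the 130 selected and the 955 other lesion cells, with 1 point per cell and lines at the quartiles and the median (thick). The selected cells have a median milk share of 12% against 16.8%, and a median depth of 2529 UMIs against 2903.

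The selected cells were also somewhat shallower, with a median of 2529 UMIs (first quartile 1310) and 991 genes, against 2903 UMIs (first quartile 1785) and 1080 genes in the other lesion cells. Mitochondrial UMIs were at 0.127% in the median selected cell and 0.118% in the median other cell. Against other lesion cells matched on UMI total, 19 of 26 tested immediate early genes outside the set were called higher. Over all tested genes that setting gave 171 higher and 74 lower calls. The main comparison, which tested more genes, gave 440 and 71. The part of depth and milk share in the remaining differences was not tested. Of 27 tested oxidative phosphorylation genes none was called, with a median of -0.18, and of 11 tested MHC class I genes none, with a median of -0.22. Translation factors centred on 0.07.

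Of 7 tested basal and myoepithelial genes, 3 were called lower. Acta2, smooth muscle actin, had 5 counts in the selected cells and 298 in the others (-2.72, -4.49 to -1.62). Of the 298, 91 were in 1 cell. Acta2 was found in like shares of cells, 3.85% of the selected and 4.50% of the other lesion cells. Tagln and Cnn1 were called too. Tagln had 2 and 111 counts and Cnn1 0 and 43, in 17 and 14 of the other cells. Cxcl13, a B cell chemokine, had 0 counts in the selected cells and 286 in the other lesion cells. It was thus at least 11.6-fold lower against a floor of 3 counts. But 194 of the 286 counts came from 1 cell, and only 15 of the 955 other lesion cells (1.57%) held any. Ubd, a ubiquitin-like modifier, and Sdhaf4, an assembly factor of succinate dehydrogenase, were called lower at -1.12 and -1.45.

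The outside genes changed in steps along the ranking and not at the boundary alone. Over the lowest 50% of cells, the bins from 50 to 75%, 75 to 88% and 88 to 94%, and the highest 6%, Fosb had 3.63, 12.1, 75.3, 107 and 259 CPM. Klf6 took the values 8.29, 34.2, 93.6, 184 and 357 CPM, and Dusp1 15.0, 40.3, 93.6, 175 and 299.7 CPM. Nfkbia had 448, 808, 1214, 1644 and 1879 CPM. The selected cells are the last 2 bins, and in each of these genes the bin just below them was already above the lowest bin beyond the counting intervals. Klf2 was highest in the bin from 88 to 94%, at 188 CPM, against 133 CPM in the highest bin, with intervals that overlap. Csn2 had 54593, 57927, 47770, 47624 and 28176 CPM, so its lower level lay mostly in the highest 6% of cells. Birc5 had 63.4 CPM in the highest bin and 224 CPM in the lowest.

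**Figure D5:**
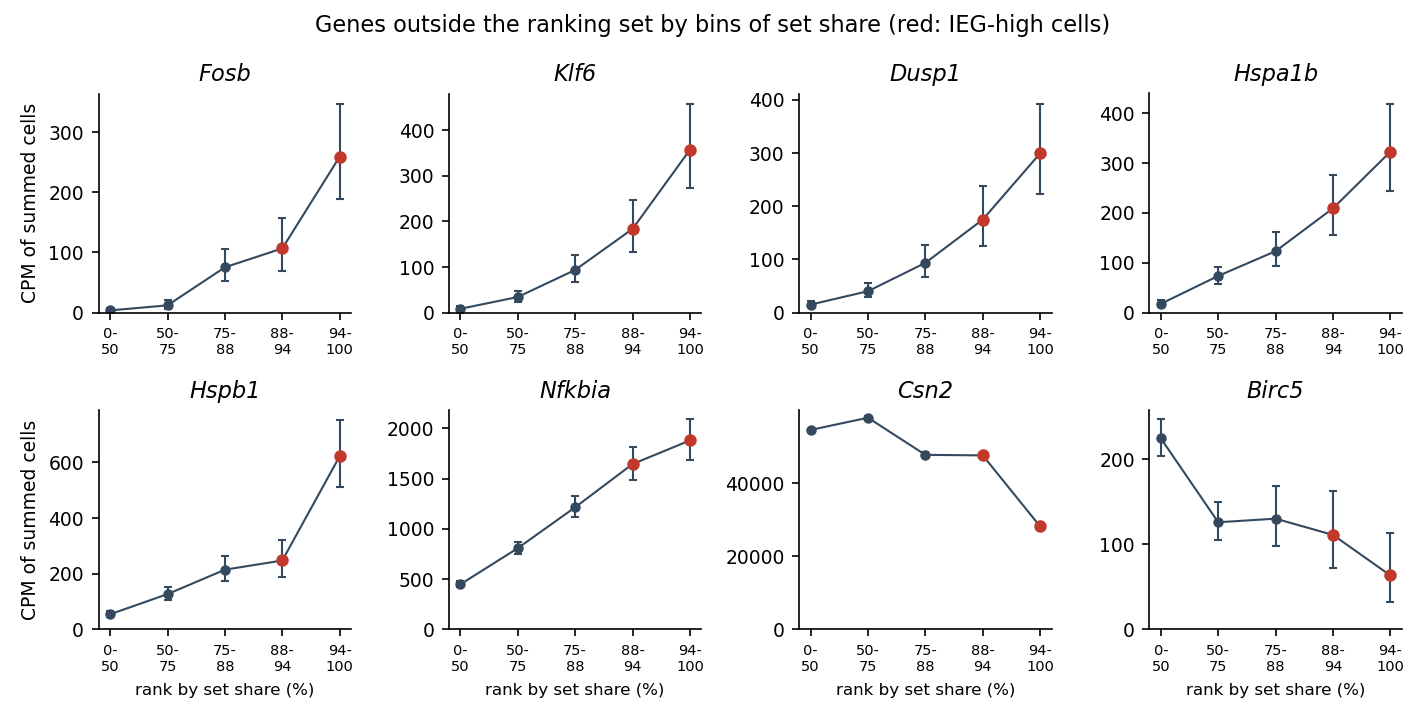
CPM of 8 genes outside the ranking set (vertical axes, linear from 0) in summed lesion cells, by bins of their rank in set share (horizontal axes, percent of cells, low to high), with exact 95% Poisson intervals. Red points are the selected cells: Fosb, Klf6, Dusp1, Hspa1b, Hspb1 and Nfkbia increase through all 5 bins, while Csn2 is lowest in the last bin. Hspa1b may hold reads of the ranking gene Hspa1a.

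The same ranking was applied to the primary tumor library, which the selection had not used. Its top 12%, 51 of 425 cells, had a set share of 0.136% at the median and 0.465% at the highest, so they lie below every selected lesion cell. Of 7468 tested genes, 199 were called higher in these tumor cells over the other 374 (2.66%) and 121 lower (1.62%). Here 2 cells over 10000 UMIs held 67.8% of the UMIs of the top cells, and 16 such cells held 52.6% of the others. Without cells over 10000 UMIs, where the median log2 ratio of all tested genes was 0.27 against 0.08 with them, 152 genes were called higher and 59 lower, and only 19 of the 199 and 14 of the 121 were called again. The tumor values below therefore rest on few cells. The tumor ranking also rests on few counts: all 425 tumor cells together held 815 set UMIs, while the median selected lesion cell alone held 30. The part of this in the tumor ratios was not tested.

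Of the other immediate early genes, 4 of 25 tested were called higher in the top tumor cells with a median log2 ratio of 0.31, against 22 of 34 and 1.40 in the lesion. Of the AP-1 relatives, 0 of 7 were. Jund had 535 CPM in the top tumor cells and 276 CPM in the other tumor cells (0.96, 0.66 to 1.24), and Klf6 had 71.8 and 38.8 CPM (0.92, 0.04 to 1.67). Fosb had 0 counts in the tumor library. Hspa1b was called, with 112 and 28.6 CPM (1.97, 1.23 to 2.68), but 21 of its 28 counts in the top cells came from 1 cell. Also called were Cyr61 (4.50, 3.88 to 5.20), with 53 of 95 counts in 1 cell, Rhob (1.05) and Nr4a1 (1.03). Of 340 genes called higher in the lesion and tested in the tumor, 17 were called higher there too (5%) and 9 lower. Without cells over 10000 UMIs, 11 of 162 were, and Hspa1b, Cyr61, Rhob and Nr4a1 were not among them. The 11 included the nuclear-retained RNAs Malat1, Xist and Neat1 (4.99, 4.44 and 3.52), and Zfp36l2 and Tob1 (1.28 and 1.04). Jund stood at 0.41 and was not called. Whether the lesion and tumor effects differ could not be tested with 1 library each.

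Across whole libraries, Fos had 923 CPM in the lesion, 73.0 CPM in the tumor, 123 CPM in the early lung and 158 CPM in the late lung. Jun showed another order, with 381 CPM in the lesion, 113 CPM in the tumor, 378 CPM in the early lung and 689 CPM in the late lung. Fosb stood at 32.4 CPM in the lesion, with 0 counts in the tumor, which 3 counts would put at 1.65 CPM, 0 counts in the early lung and 3 counts in the late lung. Klf2 and Dusp1 were higher in the lungs than in the selected lesion cells, with 819.9 and 563 CPM for Klf2 and 506 and 498 CPM for Dusp1 in the early and late lung. Site, stage and library cannot be told apart in these values.

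The promoter motifs shown above were about as frequent among the higher genes as among all tested genes. Of 322 called genes with a promoter window, 14 held a full CRE (4.35%), against 253 of 6209 tested genes with a window (4.07%). The core TGACG was in 40.7% of the called and 38.9% of the tested genes. The CArG box was in 2.80 and 1.63%, and the AP-1 site in 5.90 and 5.40%. The heat shock element GAANNTTC was in 7.45 and 6.89%, and TTCNNGAA in 5.90 and 8.23%.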

How the data were processed

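Per the labels, 4 libraries of sorted cells were made with the 10x Chromium 3′ v2 kit . The authors deposited counts: whole-number UMI counts per gene and barcode for all 737280 listed barcodes and 27998 genes, not normalized. Per the submitters' processing notes, reads were placed on mm10. Aligner and annotation are not given in the sources used here. The lesion library held 6366768 UMIs, of which the selected cells held 407671 and the other lesion cells 3359950, which limits the precision.

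Cells were called as stated in the report, with a UMI minimum set per library. Gene positions are from GENCODE M21. Counts were summed over cells and scaled to CPM, and log2 ratios were taken after adding 0.5 counts to each sum, with exact conditional Poisson intervals (SciPy 1.17.1). Set genes were left out of the calls. Beside the set, the genes named come from a rule: of genes at 50 CPM or more in either sum, and leaving out mitochondrial, ribosomal and unnamed entries, the first 10 in each direction, ordered by the end of the interval closer to equality. Up to 4 genes of each of 26 lists were added by the same order, with Erbb2 and Ptprc. Further list members, Cyr61 and genes shared with the tumor were named after their values were seen. The selection, lists and markers were chosen with earlier results of these data known. Doublets were kept (Scrublet in Scanpy 1.11.5 as an alternative). The workflow was tested on simulated counts. The 19 alternatives varied the ranking, cell filters, scaling, added counts and count minimum, and 2 of them (cells with markers of other types removed, top cell of each gene left out) were chosen after seeing the data.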

Additional observations from a re-analysis of the deposited data

How the results depend on the processing

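Over 19 alternative settings, 13 of the 53 named genes that were called kept the call in every setting that gave a value: Arrdc3, Btg1, Dnajb1, Dusp1, Fosb, Hspa1b, Hspb1, Jund, Klf2, Klf6, Nfkbia, Zfp36l2 and, over 18 settings, Cxcl13. Of these, Hspa1b may hold reads of the ranking gene Hspa1a. Cxcl13 was found in only 15 of the other lesion cells, with 194 of its 286 counts in 1 cell. Between 60.0 and 73.5% of the tested other immediate early genes were called higher, and between 36.4 and 63.6% of the AP-1 genes. The 440 higher genes became 171 against other cells matched on UMI total, 83 with at least 100 counts and 280 with ranking and measuring on separate parts of each cell's UMIs, settings in which fewer genes were tested. The 71 lower genes became 42 with at least 100 counts and 6 with 5 added counts. In the tumor, the 121 lower genes became 59 without cells over 10000 UMIs and 11 with 5 added counts. The scaling without milk genes moved the median log2 ratio of all tested genes to 0.10, and 5 added counts to 0.63, from 0.15 in the reported values. Signs turned for Acta2 (0.23) and Tagln (0.0038) without cells with markers of other types (a removal that used Acta2 itself and so shows nothing about it), Malat1 (-0.0908) on separate UMI parts, Xist (-1.44) at up to 10% mitochondrial UMIs, and Rgs5 for the top 6% of cells (-1.03), at 1500 or more UMIs (-2.27) and with the ranking outside milk genes (-2.41). Beyond the single cells named in the report, the cause of these changes was not tested. Counts of 20 to 50 per gene limit most calls, and a gene with no count in the selected cells needed at least 33 counts to be called lower. No paired analysis was possible because each group had 1 library, and no library could be left out.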
